A study of Homo sapiens with 6 samples.

Results

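The genes described here encode the aminoacyl-tRNA synthetases, the enzymes that load each amino acid onto its transfer RNA, together with scaffold proteins that hold several of them in one complex. They were chosen by name: 19 genes of enzymes that work in the cytosol, 16 of enzymes that work in mitochondria and 3 of scaffold proteins, and each was read from the brightest probe set that names that gene alone. Such a probe set was found for 36 of the 38 genes, among 17534 genes in all. The scaffold genes AIMP2 and EEF1E1 had none and are not analysed here. Expression was read on 6 PrimeView arrays from MM.1R, a glucocorticoid-resistant line of human myeloma cells. In 3 arrays the cells had been given epirubicin hydrochloride, an anthracycline that poisons topoisomerase II, and in the 3 control arrays they had been infected with a short hairpin control vector (shCtrl). Since only control arrays carry the vector in their labels, drug and vector cannot be told apart, and neither dose nor time is given. Whether replicate arrays stand for separate cultures is not stated, so the p-values may reflect technical spread alone.

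Cytosolic and mitochondrial translation each have their own set of synthetases, encoded by separate nuclear genes for most amino acids. Exceptions are GARS1 and KARS1, each of which makes both the cytosolic and the mitochondrial enzyme, and glutamine, which mitochondria load by way of glutamate and an amidating enzyme. The transcription factor ATF4, made during amino acid shortage and other stresses, is known to raise many cytosolic synthetase genes along with genes of amino acid synthesis and uptake. Plasma cells and the myeloma cells that derive from them make immunoglobulin at a high rate and lean on this supply of charged tRNA.

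A gene was called when its adjusted p in limma, over all 17534 genes, was under 0.05 and its fold change at least 1.3 (0.38 on the log2 scale). Rose and fell are used of called genes, and a gene past the adjusted p alone is described as higher or lower at any fold.

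The label of the cells was checked on 12 plasma cell genes. Of these, 11 had a mean log2 value of 6.42 or more in shCtrl arrays, where the lower quartile of the arrays lay between 3.84 and 3.90, and CD27 had 4.13. CD38 (-1.18) and IRF4 (-0.49) fell with epirubicin and 0 of the 12 were called higher. At any fold 4 of the 12 were lower and 3 higher, the higher ones being SLAMF7 (0.23), POU2AF1 (0.25) and DERL3 (0.26). Markers of other cells moved as well: 3 of 9 myeloid genes and 2 of 10 stromal genes rose, 0 of 10 T and NK cell genes did, and 0 of these 29 fell. For comparison, 4.36% of all genes were called higher and 2.14% lower, and 15.6% were higher and 13.5% lower at any fold. The mean log2 value of the myeloid list was 4.54 to 4.6 in epirubicin arrays and 3.96 to 3.98 in shCtrl arrays, and that of the stromal list 4.31 to 4.43 in epirubicin arrays and 3.99 to 4.08 in shCtrl arrays. ITGAM, a myeloid integrin gene, averaged 6.99 in epirubicin arrays and 3.25 in shCtrl arrays, the largest rise of all genes tested. The others that rose were CD68 (0.63) and S100A9 (0.53) in the myeloid list and ACTA2 (1.55) and FN1 (0.98) in the stromal list. Means below 3.90 in both groups were found for 4 of the 9 myeloid genes (CD14, LYZ, S100A8 and FCGR3A) and 4 of the 10 stromal ones (DCN, LUM, VCAM1 and THY1). CSF1R, MPO, COL1A1, COL1A2 and PDGFRB lay above it in both groups and were not called. The part of these cells in the results below was not tested.

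Most synthetase genes that passed the test were lower with epirubicin, by small amounts. By the rule given above 1 of 36 members was called, MARS2, which fell. That is 2.78% of the members, against 6.51% of all genes tested. Without the fold threshold the picture was wider: 22 of 36 members, or 61.1%, passed limma at an adjusted p below 0.05, against 29.1% of all genes. Of these, 19 were lower (52.8% of the members, against 13.5% of all genes) and 3 higher (8.3%, against 15.6%). The 21 small differences, those past the test but under the fold threshold, lay between 1.08-fold and 1.24-fold. The 3 epirubicin arrays all lay on one side of the 3 shCtrl arrays in 29 members (80.6%, against 43.8% of all genes), in 22 of them below (20.1% of all genes) and in 7 above (23.8% of all genes). The median log2 fold change of the 36 members was -0.12, and that of all genes was 0.02. All 36 members had a mean over the 6 arrays above the median of all values (5.54). Shares among genes of like level were not worked out.

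**Figure D1:**
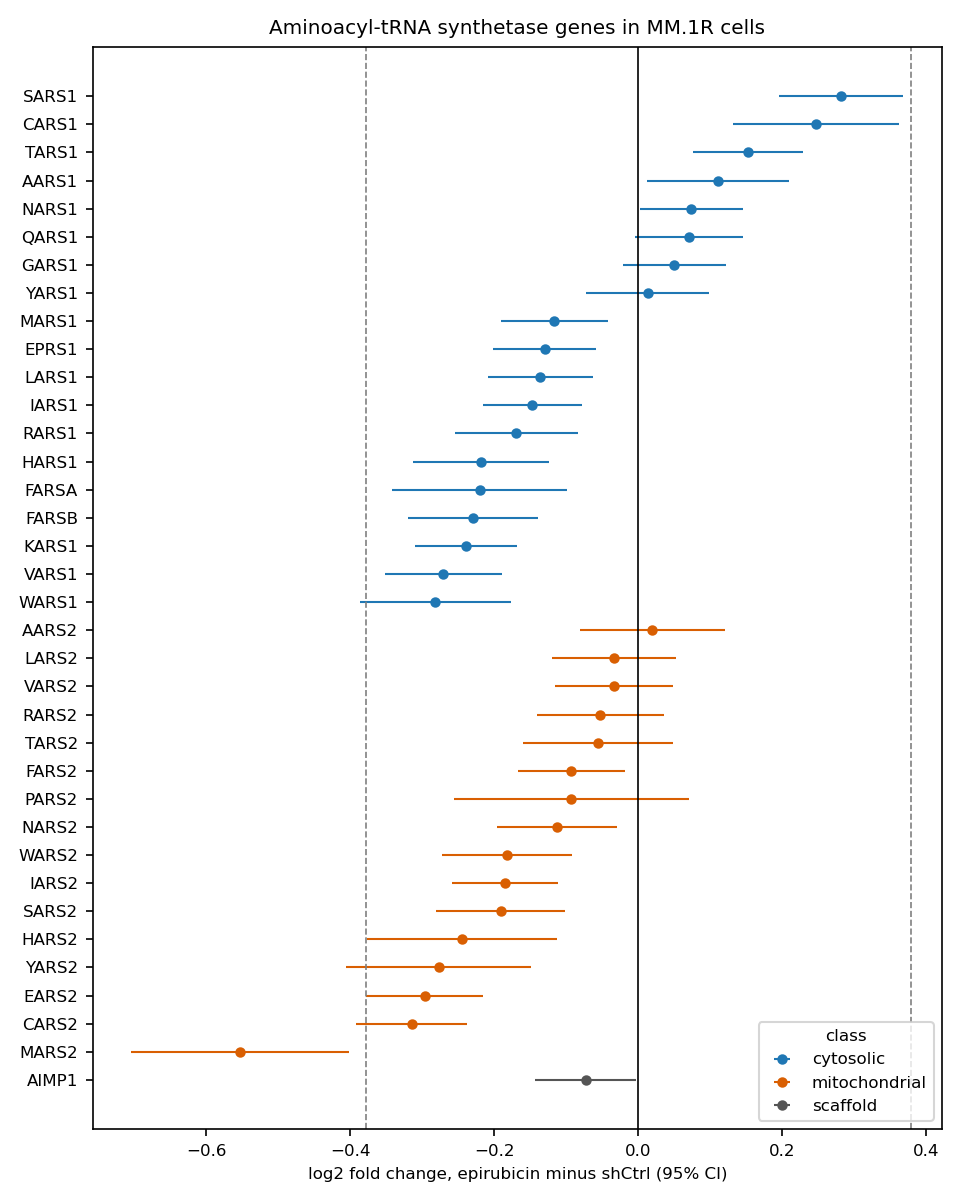
Log2 fold change of each of the 36 measured genes, epirubicin minus shCtrl, on the x axis, with bars for the 95% confidence interval from limma (n = 3 arrays per group) and dashed lines at a 1.3-fold change. MARS2 is the only gene whose point lies past a dashed line, at -0.55, and among cytosolic genes SARS1 is highest at 0.28 and WARS1 lowest at -0.28.

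Among mitochondrial enzymes the largest change was in MARS2, which loads methionine onto the mitochondrial tRNA that both starts and extends proteins there. MARS2 had log2 values of 7.92, 7.68 and 7.82 in epirubicin arrays, against 8.33, 8.40 and 8.35 in shCtrl arrays. All 3 epirubicin arrays were lower than every shCtrl array, and they were also more spread (SD 0.12 in epirubicin arrays, against 0.04 in shCtrl arrays). The gene fell by 0.55 on the log2 scale (SE 0.06, 95% CI -0.70 to -0.40, limma adjusted p = 0.00112), a 1.47-fold decrease, and all 3 of its probe sets were called lower, at -0.56 to -0.54. Leaving out any 1 array gave -0.61 to -0.49, with an adjusted p of at most 0.00689 in limma. The gene lies at chr2:197705369-197708395 (GRCh38.p14), and the 250 bases before its annotated start are shown on the plus strand (chr2:197705119-197705368), with a CACGTG hexamer, the E-box read by MYC and related factors, in capitals.
MARS2: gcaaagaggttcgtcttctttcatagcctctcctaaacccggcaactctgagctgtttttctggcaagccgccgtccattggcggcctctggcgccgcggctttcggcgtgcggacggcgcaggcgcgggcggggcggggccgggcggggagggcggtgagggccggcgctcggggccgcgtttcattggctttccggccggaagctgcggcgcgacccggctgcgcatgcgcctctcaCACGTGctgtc

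CARS2 and EARS2, which load cysteine and glutamate in mitochondria, came next and did not reach the fold threshold, at 1.24-fold and 1.23-fold. CARS2 had 8.64, 8.67 and 8.66 in epirubicin arrays, against 8.93, 8.99 and 8.98 in shCtrl arrays. The groups stood well apart, with an SD of 0.01 in epirubicin arrays and 0.03 in shCtrl arrays, and the log2 fold change was -0.31 (SE 0.03, limma adjusted p = 0.000747). EARS2 had 7.61, 7.64 and 7.63 in epirubicin arrays, against 7.93, 7.88 and 7.96 in shCtrl arrays. Its log2 fold change was -0.30 (SE 0.03, limma adjusted p = 0.00115), again without overlap, and its 4 probe sets lay between -0.32 and -0.29.

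Smaller differences were seen in the rest of the class. Of 16 genes 15 had a log2 fold change below 0, where 55.7% of all genes lay above 0. At any fold 8 passed the test, all lower (50%, against 13.5% of all genes). Besides MARS2, CARS2 and EARS2 these were YARS2 for tyrosine (-0.28), HARS2 for histidine (-0.24), SARS2 for serine (-0.19), IARS2 for isoleucine (-0.19) and WARS2 for tryptophan (-0.18). HARS2 missed the test without shCtrl replicate 1 (adjusted p = 0.0576 in limma) and without shCtrl replicate 3 (adjusted p = 0.0547). The other 8 did not pass. NARS2, PARS2, FARS2, TARS2, RARS2, VARS2 and LARS2 lay between -0.11 and -0.03, and AARS2, the alanine enzyme, at 0.02 (95% CI -0.08 to 0.12). The choice of probe set matters for 3 of them. As a mean over its probe sets TARS2 lay at -0.15 and passed at any fold (limma adjusted p = 0.0127), against -0.06 for its brightest, while PARS2 lay at -0.19, against -0.09, and VARS2 at -0.09, against -0.03, without passing. The median of the class was -0.15.

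The cytosolic enzymes lay on both sides of 0, and none was called. Of 19 genes, 11 were lower in limma at any fold (adjusted p below 0.05), or 57.9% against 13.5% of all genes. Another 3 were higher, or 15.8% against 15.6%, and 5 did not pass. The median of the 19 genes was -0.13 and the log2 fold changes ran from -0.28 to 0.28. The genes with the largest difference each way were WARS1 and SARS1. WARS1, the tryptophan enzyme, known as a gene induced by interferon gamma, had 6.995, 6.905 and 6.958 in epirubicin arrays, against 7.285, 7.249 and 7.170 in shCtrl arrays. It was lower in each epirubicin array than in any shCtrl array, by 0.28 on average (SE 0.04, limma adjusted p = 0.00382). Its 3 brighter probe sets lay at -0.37 to -0.26 and a dim one at 0.09. SARS1, the serine enzyme, which also charges the tRNA on which selenocysteine is made, had 8.66, 8.74 and 8.73 in epirubicin arrays, against 8.45, 8.40 and 8.44 in shCtrl arrays. It was higher in all 3 epirubicin arrays, by 0.28 (SE 0.04, limma adjusted p = 0.00176), on the single probe set it has. VARS1, the valine enzyme, had 8.75, 8.80 and 8.77 in epirubicin arrays, against 9.055, 9.067 and 9.004 in shCtrl arrays. Its difference of -0.27 (SE 0.03, limma adjusted p = 0.00164) was shared by all 4 probe sets, at -0.38 to -0.27.

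**Figure D2:**
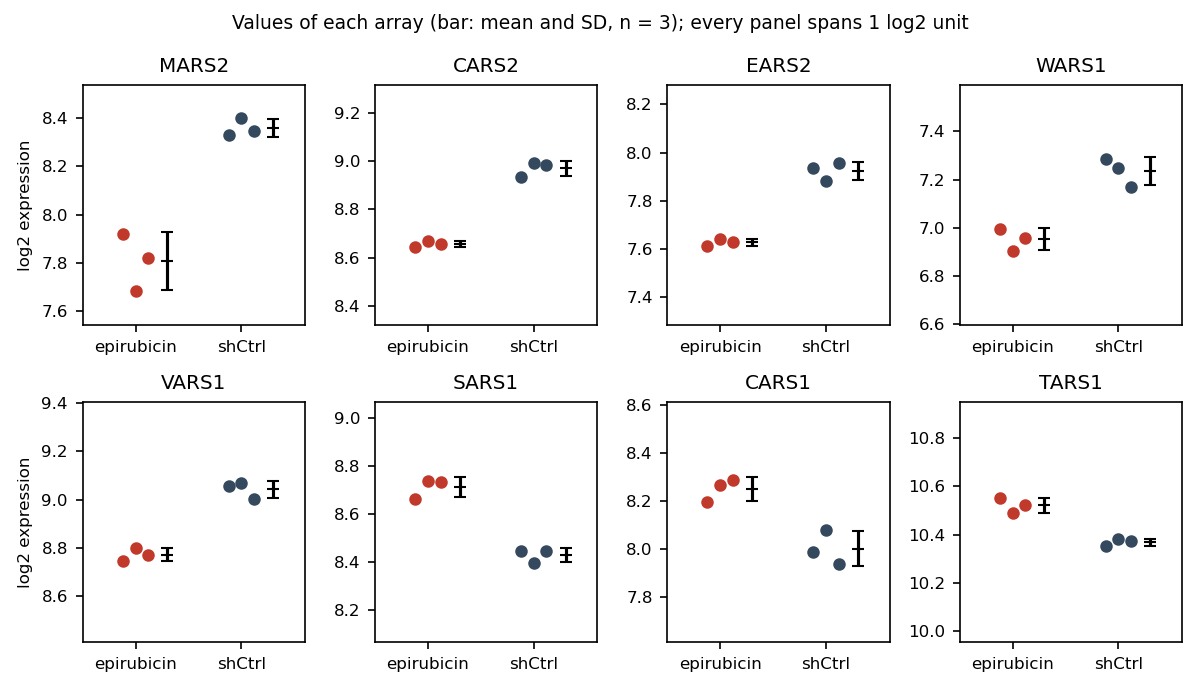
Log2 expression on the y axis for each array of 8 genes, epirubicin arrays left of shCtrl arrays, with the mean and SD of 3 arrays as a bar, every panel spanning the same height. The groups do not overlap in any of the 8 genes: epirubicin arrays are lower for MARS2, CARS2, EARS2, WARS1 and VARS1 and higher for SARS1, CARS1 and TARS1.

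The other cytosolic genes that were higher at any fold were CARS1, for cysteine, and TARS1, for threonine. CARS1 averaged 8.248 ± 0.049 in epirubicin arrays and 8.002 ± 0.072 in shCtrl arrays (SD, n = 3), a difference of 0.25 (SE 0.05, limma adjusted p = 0.00969). TARS1 averaged 10.52 ± 0.03 in epirubicin arrays and 10.37 ± 0.01 in shCtrl arrays, a difference of 0.15 (SE 0.03, limma adjusted p = 0.0127), and its 3 probe sets lay at 0.15 to 0.28. AARS1 (0.11), NARS1 (0.07), QARS1 (0.07), GARS1 (0.05) and YARS1 (0.01) did not pass. AARS1, NARS1, QARS1 and GARS1, for alanine, asparagine, glutamine and glycine, nonetheless had all 3 epirubicin arrays above the shCtrl arrays. The sign of NARS1 turned as a mean over its 4 probe sets (-0.02), and that of YARS1 when arrays were centred on their medians (-0.02).

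The lower cytosolic genes included both subunits of the phenylalanine enzyme, FARSA (-0.22) and FARSB (-0.23), which form one tetramer. A dim probe set of FARSB, not the one used, was called lower at -0.68, with 4.53 in epirubicin arrays against 5.21 in shCtrl arrays. KARS1, for lysine, lay at -0.24 (limma adjusted p = 0.00150), the histidine enzyme HARS1 at -0.22 and the arginine enzyme RARS1 at -0.17. IARS1 (-0.15), LARS1 (-0.14), EPRS1 (-0.13) and MARS1 (-0.12), for isoleucine, leucine, glutamate with proline, and methionine, were closest to 0. EPRS1, FARSA and LARS1 each missed the test when certain single arrays were left out. MARS1 missed it whichever single array was left out, with adjusted p up to 0.101 in limma, reached without shCtrl replicate 1. It also missed as a mean over its probe sets (-0.07, limma adjusted p = 0.117). With shCtrl replicate 1 left out, the number of cytosolic genes lower at any fold was 7 in place of 11.

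The multisynthetase complex gathers several cytosolic synthetases around the scaffold proteins, and 7 of its enzymes were measured. Of these 6 were lower at any fold (EPRS1, IARS1, KARS1, LARS1, MARS1 and RARS1), 0 were higher, and QARS1 did not pass. Over all genes 13.5% were lower at any fold and 15.6% higher. The median of the 7 enzymes was -0.14. The count of 6 did not hold when any single array was left out, since MARS1 then always missed the test. Without shCtrl replicate 1 it was 3 of 7, since EPRS1 and LARS1 missed as well (limma adjusted p = 0.0645 and 0.0524, with 0.101 for MARS1). A fit with replicate number as a block also gave 3. Of the 12 cytosolic genes outside the complex 5 were lower and 3 higher, with a median of 0.03. The scaffold gene AIMP1 had 9.47, 9.47 and 9.49 in epirubicin arrays, against 9.55, 9.54 and 9.56 in shCtrl arrays. These groups did not overlap, but the difference of -0.07 (SE 0.03) did not pass (limma adjusted p = 0.114). As a mean over its 5 probe sets AIMP1 lay at -0.12 and passed at any fold (limma adjusted p = 0.0132). Sorted by the fold of the catalytic domain instead, the 9 class I cytosolic genes had a median of -0.14 and the 9 class II genes 0.05, with 6 and 4 lower and 1 and 2 higher at any fold; EPRS1 holds one domain of each class. Mitochondrial class I and class II genes had medians of -0.19 and -0.09. No test was made between these subgroups.

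The mean log2 value over the 19 cytosolic genes was 9.31 ± 0.02 in epirubicin arrays and 9.37 ± 0.01 in shCtrl arrays, and over the 16 mitochondrial genes 7.49 ± 0.02 in epirubicin arrays and 7.66 ± 0.005 in shCtrl arrays (SD, n = 3). The level of one probe set cannot be set against that of another, so only the change between groups can be read. The cytosolic mean change exceeded the mitochondrial one by 0.11. The medians of the classes lay closer together, at -0.13 and -0.15.

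Cytosolic and mitochondrial enzymes for the same amino acid were set side by side in 17 pairings (EPRS1 and FARS2 each enter 2). The log2 fold changes had the same sign in 12 pairings and opposite signs in 5, and in 2 of those 5, cysteine and serine, both genes passed the test at any fold. The cytosolic change lay above the mitochondrial one in 10 and below it in 7. The widest gap was for cysteine, with CARS1 at 0.25 and CARS2 at -0.31, a difference of 0.56 where the SD of the per-array difference was 0.06. Serine followed, with SARS1 at 0.28 and SARS2 at -0.19, a difference of 0.47 (SD 0.03). Methionine came next at 0.44 (SD 0.10), with both enzymes below 0. At the other end valine had VARS1 at -0.27 and VARS2 at -0.03, a difference of -0.24 (SD 0.04). In 13 of the 17 pairings the 3 per-array differences of one group lay beyond those of the other. Over all single genes the groups did not overlap in 43.8%, and no such share was worked out for differences between other gene pairs. These gaps are a description and were not tested.

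**Figure D3:**
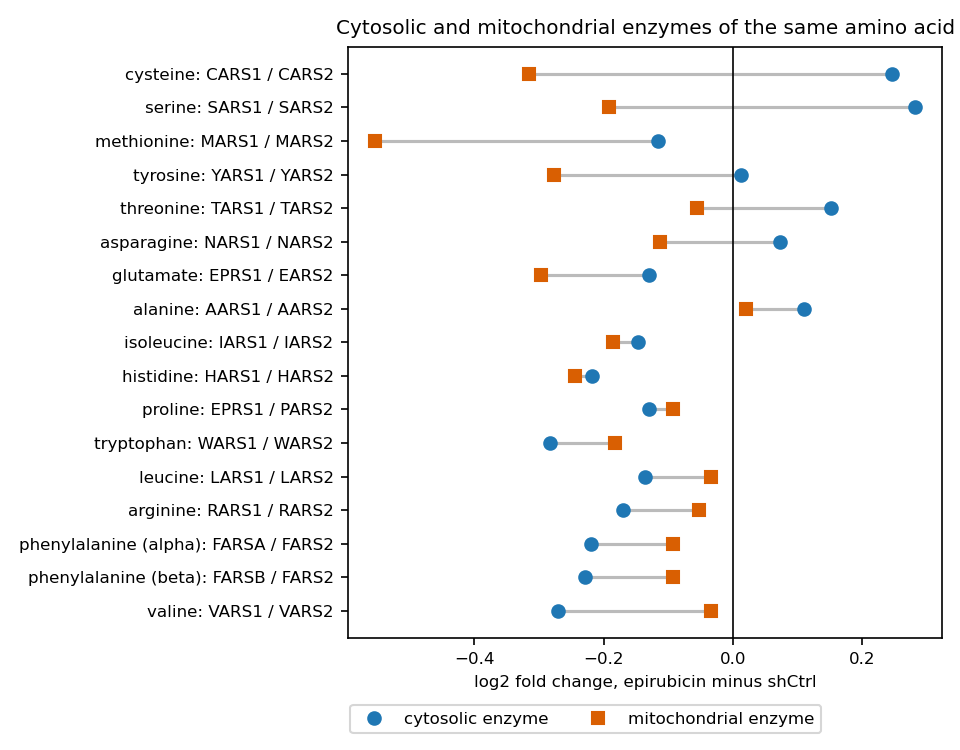
Log2 fold change, epirubicin minus shCtrl, of the cytosolic (circle) and mitochondrial (square) enzyme of each amino acid, joined by a line and sorted by their difference. CARS1 and SARS1 lie right of 0 while CARS2 and SARS2 lie left of it, and for valine at the bottom the order is reversed.

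HARS1 and HARS2 are neighbours that run in opposite directions, with their annotated starts separated by 84 bases at chr5:140691371-140691454 (GRCh38.p14). Both were lower by a like amount: HARS1 had 8.87, 8.89 and 8.95 in epirubicin arrays, against 9.12, 9.17 and 9.08 in shCtrl arrays, and HARS2 had 6.805, 6.715 and 6.601 in epirubicin arrays, against 6.972, 6.923 and 6.960 in shCtrl arrays. The differences were -0.22 (SE 0.04) and -0.24 (SE 0.06), and neither gene overlapped between groups. The second probe set of HARS2 lay at -0.10, while the 3 of HARS1 lay at -0.29 to -0.22. The stretch between their starts, printed on the HARS2 strand because both genes share it, holds neither motif named here.
HARS1-HARS2: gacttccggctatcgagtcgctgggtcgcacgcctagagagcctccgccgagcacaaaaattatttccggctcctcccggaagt

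Since ATF4 is known to act on cytosolic synthetase genes, RefSeq promoter windows (250 bases before to 50 after the outermost annotated start, GRCh38.p14) were searched on both strands for TGATGNAA, the core of the C/EBP-ATF response element, and for CACGTG. These motifs do not overlap each other. A window was found for 31 of the 38 genes. TGATGNAA stood in 5 of 16 cytosolic windows (31.25%) and 1 of 12 mitochondrial ones (8.33%), against 2.45% of 13815 protein-coding genes. The 5 were AARS1, CARS1, IARS1, MARS1 and NARS1, with log2 fold changes of 0.11, 0.25, -0.15, -0.12 and 0.07, so genes with these letters lay on both sides of 0. The mitochondrial one was YARS2 (-0.28). CACGTG stood in the windows of MARS2 and EARS2 among mitochondrial genes and of IARS1 among cytosolic ones, 3 of 31, against 8.95% of all windows. Over all 1090 measured genes that hold CACGTG the median log2 fold change was 0.004, and over the 296 that hold TGATGNAA it was 0.03. A match is a description of the letters and no evidence of binding.

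The windows of CARS1, IARS1 and MARS1 are printed because they hold the letters and have the largest changes, in both directions, among the cytosolic genes that do. They run 5′ to 3′ on the strand of the gene, from 250 bases before the start to the start or, for CARS1 and MARS1, to the end of a match that spans it. Matches are in capitals, TTGCATCA being the other strand of TGATGCAA. CARS1 lies on the minus strand at chr11:3057418-3057673, IARS1 on the minus strand at chr9:92293698-92293947 and MARS1 on the plus strand at chr12:57487818-57488071.
CARS1: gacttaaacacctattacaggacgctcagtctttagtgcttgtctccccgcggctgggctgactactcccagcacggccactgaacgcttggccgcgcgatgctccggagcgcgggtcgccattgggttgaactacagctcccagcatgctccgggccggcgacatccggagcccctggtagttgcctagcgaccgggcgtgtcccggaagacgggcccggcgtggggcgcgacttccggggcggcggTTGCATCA
IARS1: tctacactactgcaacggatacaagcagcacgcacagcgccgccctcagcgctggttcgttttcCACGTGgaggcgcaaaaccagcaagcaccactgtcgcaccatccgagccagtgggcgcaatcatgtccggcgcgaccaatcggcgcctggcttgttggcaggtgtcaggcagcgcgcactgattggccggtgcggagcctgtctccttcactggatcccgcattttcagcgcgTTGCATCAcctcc
MARS1: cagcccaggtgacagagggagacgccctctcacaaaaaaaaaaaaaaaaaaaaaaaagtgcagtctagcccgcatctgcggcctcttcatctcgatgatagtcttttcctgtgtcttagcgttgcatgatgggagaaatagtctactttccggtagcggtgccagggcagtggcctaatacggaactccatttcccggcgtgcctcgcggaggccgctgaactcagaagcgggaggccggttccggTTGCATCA

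For comparison, the 30 bases around the match are given for the other genes, on the strand of the gene, which is the minus strand for each. They are AARS1 at chr16:70289675-70289704, NARS1 at chr18:57621804-57621833, YARS2 at chr12:32756076-32756105 and EARS2, with its E-box, at chr16:23557348-23557377. The match lies before the start in AARS1 and YARS2 and after it in NARS1 and EARS2.
AARS1: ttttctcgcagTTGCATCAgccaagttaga
NARS1: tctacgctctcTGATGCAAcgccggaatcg
YARS2: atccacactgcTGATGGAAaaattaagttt
EARS2: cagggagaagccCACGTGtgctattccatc

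The integrated stress response slows translation through phosphorylated eIF2 and raises ATF4. Of 18 genes of the integrated stress response 5 were called higher and 0 lower, where 4.36% of all genes were called higher and 2.14% lower, and the median was 0.23. At any fold 10 were higher and 3 lower, where 15.6% of all genes were higher and 13.5% lower. The lower ones were the eIF2 kinase gene EIF2AK2 (-0.20), GCN1, an activator of another such kinase (-0.27), and EIF2S1, the subunit of eIF2 that they phosphorylate (-0.20). EIF2AK4, also an eIF2 kinase gene, was higher at any fold (0.33, limma adjusted p = 0.00165). The kinase genes EIF2AK1 (-0.006) and EIF2AK3 (-0.11) did not pass. ATF3, a transcription factor induced by stress, rose by 2.56 on the log2 scale (SE 0.03), DDIT3, the proapoptotic factor CHOP, by 1.54 (SE 0.07) and PPP1R15A, which helps to reverse the translational block, by 0.84 (SE 0.05). ATF4 itself was not called, with a difference of 0.18 (SE 0.03, limma adjusted p = 0.00727), nor was its target TRIB3 (0.30, limma adjusted p = 0.0012). Both were higher at any fold. The other genes called higher, ATF5 (0.68) and CEBPB (0.50), complete the count. They, the 3 lower genes and EIF2AK1, EIF2AK3 and EIF2AK4 were named after their values were seen.

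Among 23 genes of amino acid synthesis, uptake and related ATF4 targets, 6 were called higher and 2 lower, 10 were higher and 4 lower at any fold, and the median was 0.07. The shares of all genes were 4.36% called higher and 2.14% called lower, and 15.6% higher and 13.5% lower at any fold. SESN2, an inhibitor of mTORC1 signalling, rose by 1.70 (SE 0.05), CTH, which makes cysteine from cystathionine, by 0.79 (SE 0.08) and the amino acid transporter gene SLC38A2 by 0.57 (SE 0.03). The other genes called higher, DDIT4 (0.48), SLC3A2 (0.46) and VLDLR (0.41), complete that count and were named after their values were seen. ALDH18A1, an enzyme of proline synthesis, fell by 0.46 (SE 0.04) and SLC7A5, the light chain of the large neutral amino acid transporter, by 0.40 (SE 0.03). Among known ATF4 targets named whatever their result, ASNS (0.17), PSAT1 (0.21), PHGDH (0.18) and CHAC1 (0.35) were not called, though each passed the test at any fold (limma adjusted p up to 0.0194). Named after their values were seen, PYCR1 (-0.25) and SLC1A5 (-0.26) were lower at any fold, and SHMT2 (-0.09) and MTHFD2 (0.03) did not pass. Also named whatever their result, CDKN1A, which encodes the cell cycle inhibitor p21, rose by 1.88 (SE 0.03) and the transcription factor gene MYC fell by 0.52 (SE 0.03); their part in the results above was not tested.

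The remaining lists hold genes that make, modify or use tRNA. Of 62 tRNA modification genes 4 were called lower and 0 higher, 30 were lower at any fold and 0 higher, and the median was -0.15. Over all genes 2.14% were called lower and 4.36% higher, and 13.5% were lower at any fold and 15.6% higher. WDR4, the partner subunit of the tRNA guanosine-7 methyltransferase, fell by 0.62 (SE 0.04), the pseudouridine synthase gene PUS7 by 0.47 (SE 0.04) and the cytosine methyltransferase gene NSUN2 by 0.43 (SE 0.03); the remaining gene, CDKAL1 (-0.39), was named after its value was seen. Of 31 genes of tRNA transcription and maturation 1 was called lower, RPP40, a subunit of RNase P (-0.49, SE 0.05), and 0 higher, with a median of -0.06. At any fold 11 of the 31 were lower and 3 higher. XPOT, which exports tRNA from the nucleus, was not called (-0.20, limma adjusted p = 0.0101).

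Of 6 genes of editing, hydrolysis and amidation 1 was called lower, DTD2, a deacylase that clears wrongly charged tRNA (-0.57, SE 0.04), and 0 higher. At any fold 4 of the 6 were lower and 0 higher. Beside this and the next 2 lists, 2.14% of all genes were called lower and 4.36% higher. At any fold 13.5% of all genes were lower and 15.6% higher. Of 16 genes of mitochondrial translation 0 were called in either direction, 8 were lower at any fold and 0 higher, and the median was -0.13. MTFMT, which formylates the methionine that MARS2 has loaded, was chosen after its value was seen and lay at -0.26 (limma adjusted p = 0.00343). Of 15 genes of cytosolic elongation and selenocysteine 1 was called higher, EIF5A2, an isoform of a hypusinated elongation factor (0.42, SE 0.08), and 0 lower, with a median of 0.04. At any fold 3 of the 15 were higher and 2 lower. These lists were not tested against the synthetases, and their medians beside the 0.02 of all genes are a description.

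**Figure D4:**
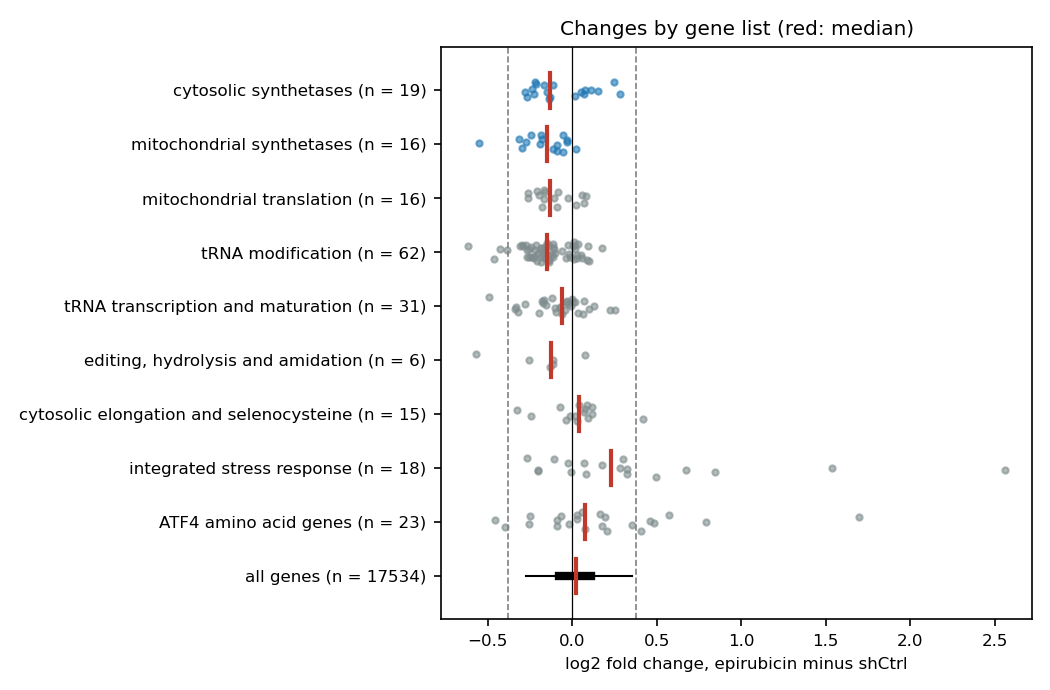
Log2 fold change, epirubicin minus shCtrl, of every measured gene in the synthetase classes and in 7 related lists, with red marks for the median, dashed lines at a 1.3-fold change and, for all 17534 genes, a thin bar from the percentile 5 to 95 (-0.28 to 0.35) and a thick bar from 25 to 75 (-0.08 to 0.11). Both synthetase classes have their median left of 0, at -0.13 and -0.15, and the integrated stress response list right of it, at 0.23.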

How the data were processed

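The authors deposited log2 expression values for 47481 probe sets on 6 arrays. That they are log2 was inferred from their range (1.41 to 13.73). Per the submitters' processing notes the affy package was used. Background correction, normalization and probe summary: not given in the sources used here. Nothing was renormalized, with array medians of 5.52 to 5.57. A normalization before deposit would remove changes in total RNA per cell, so differences are relative to the bulk of transcripts. No batch could be examined from what was used here.

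A single gene was named by 43976 probe sets in the platform annotation, several by 1558 and none by 1947. Symbols of 43954 matched RefSeq (GRCh38.p14) by Entrez number. Linear models were fitted to the 6 arrays without covariates (limma 3.58.1, R 4.3.3, functions lmFit then eBayes), p-values being adjusted by Benjamini-Hochberg over 17534 genes, and were tested on simulated data. The rule for naming genes took called members, the 3 with the largest change per class, up to 3 called genes per related list and direction, and 10 preset genes. Each marker or related list held between 9 and 65 genes. Members and lists were chosen with earlier results of these data known. The aminoacyl-tRNA related lists comprised tRNA modification, tRNA transcription and maturation, editing, mitochondrial translation, elongation, the integrated stress response and ATF4 amino acid genes, beside 4 marker lists. Replicate numbers were not used to pair the arrays in the main fit. Precision is limited by having 3 arrays per group.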

Additional observations from a re-analysis of the deposited data

How the results depend on the processing

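MARS2 stayed called and lower, and 33 of 36 members kept their sign, under every alternative; AARS2, NARS1 and YARS1, none called, did not. For single members 551 of 576 values kept their side of the threshold, and the other 25 passed under looser rules. With the fold threshold dropped, 2744 genes were higher and 2362 lower, among them 3 cytosolic genes higher and 11 lower and 8 mitochondrial genes lower. With limma's treat against 1.1-fold, 816 genes were lower, with 1 cytosolic gene higher (SARS1), 1 lower (VARS1) and 3 mitochondrial genes lower. Counting a gene with at least 1 called probe set gave 694 lower genes, 1 of them cytosolic (FARSB). The mean over probe sets moved the mitochondrial median to -0.17 and AIMP1 to -0.12. Quantile normalization gave a cytosolic median of -0.10, a mitochondrial one of -0.13, AIMP1 at -0.035 and a class difference of 0.12, and centring on array medians gave -0.16, -0.18 and -0.11 for the first 3. Leaving out 1 array gave a mitochondrial median between -0.16 and -0.13. At any fold the cytosolic genes numbered 7 to 11 lower and 2 to 6 higher, and the mitochondrial ones 7 to 10 lower and 0 higher, over 14 alternatives; the highest of the cytosolic higher counts came with quantile normalization and with eBayes with trend and robust, the lowest with the replicate block.

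Same-numbered arrays deviated from their group means with correlations of -0.03, 0.02 and 0.001, and differently numbered ones with -0.04 to 0.04. The labels do not say what the number stands for. This check therefore cannot decide whether same-numbered arrays shared a culture or batch. The replicate block left MARS2 as the 1 mitochondrial gene called lower, with 0 cytosolic genes called, and at any fold 7 cytosolic genes lower and 2 higher.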
